A study of Bos taurus with 3 samples.

Results

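Vertebrate cells use ephrins, semaphorins, Slits and netrins to sense their neighbours and their surroundings, and the transcripts of these ligands and their receptors were examined here in cultured bovine fetal fibroblasts. The genes were chosen by symbol alone, as every Eph receptor, ephrin, semaphorin of classes 3 to 7, plexin, neuropilin, Slit, Robo, netrin and UNC5 gene, with DCC and NEO1, that has a row in the deposited count table. This gave 66 genes of 31903 in the table. The cells, named BFF116, are Bos taurus fibroblasts of fetal origin whose nuclei are transferred into oocytes to make cloned embryos, and their labels name no genetic change. The 3 libraries, labelled as biological replicates, form 1 group, and all were harvested after 48 h of serum starvation, which synchronizes the cell cycle. The series holds no unstarved cells and no other cell type, so the comparisons below are between replicates and between sets of genes. The labels do not tie the replicates to separate cultures or animals, so the spread over replicates can hold technical as well as biological differences.

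Eph receptors are receptor tyrosine kinases that bind ephrins on the surface of adjoining cells, and both partners can signal into the cell that carries them. Semaphorins act through plexins, and most secreted class 3 semaphorins also need a neuropilin as co-receptor. Slits bind Robo receptors, and netrins, which are related to laminins, bind DCC, NEO1 and the UNC5 receptors. These systems were first studied in growing axons, and mesenchymal and vascular cells also use them for contact repulsion, boundary formation and migration.

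Gene counts were 8608350, 4842331 and 7122651 in replicates 1 to 3, and levels are given as CPM (counts per 1e6 gene reads, with TMM scaling). A level of 1 CPM corresponds to 8.42, 4.96 and 7.11 reads, and a gene with 0 reads could still have up to 0.356, 0.605 and 0.422 CPM by a limit of 3 counts, which covers counting error only. All 11 fibroblast markers listed for these cells reached 1 CPM in each of the 3 libraries, with summed levels of 105067 to 116330 CPM. Endothelial markers, which matter because ROBO4, PLXND1 and EPHB4 are best known from vessels, had 3 of 9 at this level (ERG, TEK and PECAM1), with summed levels of 9.47 to 27.3 CPM and with TIE1, ESAM, CLDN5, EMCN and KDR at 0 reads. Neural and glial markers had 4 of 10 (STMN2, MAP2, S100B and TUBB3), with 17.1 to 27.4 CPM in sum, and ELAVL4, RBFOX3, SOX10, GFAP and NEUROD1 were at 0 reads. Mural markers had 1 of 5 (CSPG4, with 7.60 to 14.9 CPM in sum over the list), leukocyte markers 2 of 6, and epithelial and skeletal muscle markers 0 of 7 and 0 of 5. The part of such cells in the levels below was not tested. Any gene at 0 reads, here and below, may also be one to which reads could not be assigned. Of the genes whose symbol RefSeq gives as protein-coding, 24.5% had 0 reads in every library.

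Of the 66 guidance genes, 35 reached at least 1 CPM in each library, the level called measured here. That is 53% of the guidance genes, against 34.6% of all 31903 genes and 56.4% of the 16571 genes whose symbol RefSeq gives as protein-coding, a comparison added after the data were seen. All 66 guidance genes are protein-coding, so their share is near this background. Protein-coding genes listed under a symbol that RefSeq does not use fall outside this background. The same level was reached by 26 of 39 integrin and laminin genes (66.7%) and by 17 of 46 cadherin and protocadherin genes (37%). A further 17 guidance genes had reads but fell under 1 CPM in some library, and 14 had 0 reads in every library (21.2%, against 24.5% of the protein-coding genes and 43.5% of all genes). The median guidance gene stood at 1.63 ± 0.47 on the log2(CPM + 0.5) scale (SD of the medians of 3 libraries), against 2.11 for the protein-coding genes and -0.71 for all genes. At 100 CPM or more in every library stood 5 members, SEMA3C, SEMA3D, NRP1, ROBO1 and NEO1, which is 7.58% of the guidance genes, against 7.77% of the protein-coding genes and 4.33% of all genes.

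**Figure D1:**
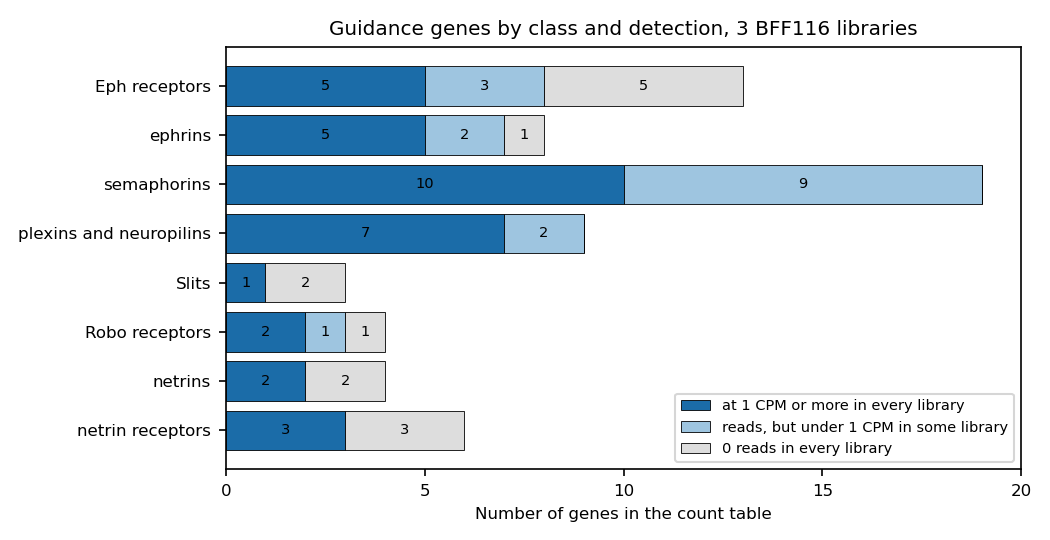
Number of guidance genes in each class (horizontal axis, genes) that were measured in all 3 libraries at 1 CPM or above (dark blue), had reads but were under 1 CPM in some library (light blue) or had 0 reads in every library (grey). Plexins and neuropilins had 7 of 9 genes in the first category, which held 56.4% of all protein-coding genes, and every semaphorin gene had at least 1 read.

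Both ligand and receptor genes of each system were measured. Eph receptors had 5 of 13 genes measured and ephrins 5 of 8, semaphorins 10 of 19 with 7 of 9 plexins and neuropilins, Slits 1 of 3 with 2 of 4 Robo receptors, and netrins 2 of 4 with 3 of 6 netrin receptors. These counts rest on few genes per class and are to be read against the 56.4% of protein-coding genes that were measured. The 66 genes held 17712, 9250 and 14107 reads in replicates 1 to 3, and the 35 measured genes held 99.3% ± 0.362 of these (SD, n = 3). Semaphorins held 47.9% ± 3.02 of the reads, plexins and neuropilins 20.8% ± 1.43, Robo receptors 8.47% ± 0.272, netrin receptors 7.26% ± 0.626, netrins 6.21% ± 1.15, Eph receptors 4.03% ± 0.502, Slits 2.82% ± 0.997 and ephrins 2.49% ± 0.210. SEMA3C and SEMA3D together held 42.5% ± 2.86. These are shares of sequencing reads, which grow with transcript length as well as with abundance. Transcript lengths were not used here, so no order of abundance between genes is given.

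**Figure D2:**
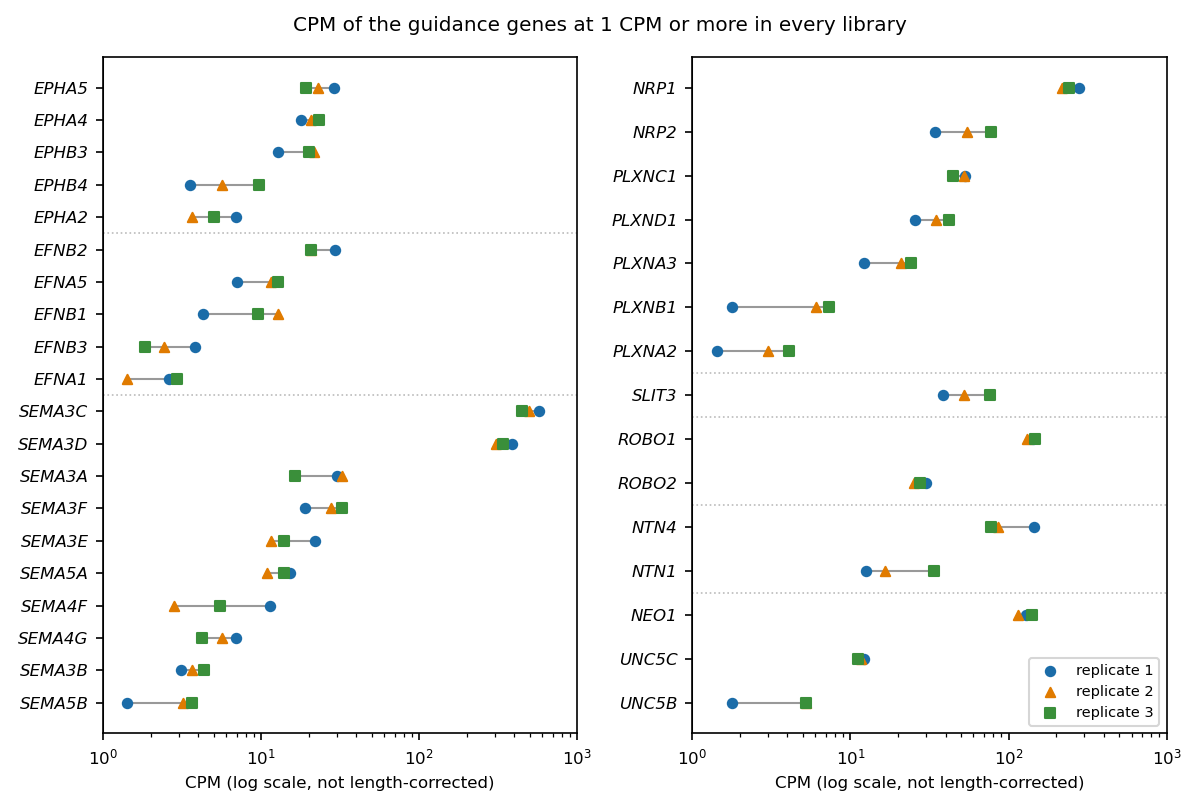
CPM (horizontal axis, log scale, not corrected for length) of the 35 measured guidance genes, 1 row per gene, with dotted lines between classes. Each marker is 1 replicate and the grey line spans the 3 values. SEMA3C, SEMA3D, NRP1, ROBO1 and NEO1 lie above 100 CPM in every library, and the 3 values of ROBO1, ROBO2, PLXNC1 and UNC5C lie close together.

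Among the Eph receptors, EPHA5, EPHA4, EPHB3, EPHB4 and EPHA2 were measured. EPHA5, a receptor of A-type ephrins best known from neurons, had 29.0, 22.8 and 19.3 CPM in replicates 1 to 3, a mean of 23.7 ± 4.92 (SD, n = 3). EPHA4, which binds ephrins of both types, had 17.9, 20.6 and 23.4 CPM, a mean of 20.6 ± 2.71. EPHB3, a receptor of B-type ephrins, had 12.7, 21.6 and 20.1 CPM, a mean of 18.1 ± 4.75. Replicate 1 was thus the highest library for EPHA5 and the lowest for EPHA4 and EPHB3, and the highest library was 1.5, 1.3 and 1.7 times the lowest for EPHA5, EPHA4 and EPHB3. EPHB4, the main receptor of EFNB2 on venous endothelium, averaged 6.30 ± 3.13 CPM, with the highest library, replicate 3, at 2.72 times replicate 1. EPHA2, a receptor of EFNA1 in epithelia and many cultured cells, averaged 5.19 ± 1.63 CPM. EPHA3 depended on the library, with 21, 3 and 60 reads in replicates 1 to 3. This is 2.49, 0.605 and 8.44 CPM, so that EPHA3 fell under 1 CPM in replicate 2 alone. EPHB2 had 7, 11 and 10 reads and EPHA1 0, 0 and 11, all of them in replicate 3. EPHA7, EPHA8, EPHA10, EPHB1 and EPHB6 had 0 reads in every library, and EPHA10 and EPHB6 encode receptors whose kinase domain is inactive.

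The ephrins fall into A-type proteins, held to the membrane by a lipid anchor, and B-type proteins, which span it. All 3 B-type genes were measured. EFNB2 had 29.2, 20.8 and 20.5 CPM in replicates 1 to 3, a mean of 23.5 ± 4.95 (SD, n = 3). EFNB1 had 4.28, 12.7 and 9.57 CPM, a mean of 8.85 ± 4.26. EFNB1 was thus lowest in replicate 1, the library in which EFNB2 was highest. EFNB3 averaged 2.68 ± 1.01 CPM, from 32, 12 and 13 reads. Of the A-type genes, EFNA5 had 7.01, 11.5 and 12.8 CPM, a mean of 10.4 ± 3.04, and EFNA1 averaged 2.33 ± 0.811 CPM from 22, 7 and 21 reads. EFNA2 had 4, 3 and 14 reads, EFNA4 0, 1 and 6, and EFNA3 had 0 in every library. Among the genes with a row, EFNA1, EFNA3 and EFNA4 follow each other in the bovine RefSeq gene order (assembly ARS-UCD2.0). Only EFNA1 of the 3 reached 1 CPM in every library.

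Of the semaphorins, 6 of the 10 measured genes encode secreted class 3 proteins. SEMA3C, a guide of neural crest and endothelial cells that can use either neuropilin, had 569, 493 and 449 CPM in replicates 1 to 3, a mean of 503.5 ± 60.6 (SD, n = 3). SEMA3D, also a cue for neural crest and endothelial cells, had 383, 304 and 336 CPM, a mean of 341 ± 39.8. Both were highest in replicate 1, and the highest library was 1.27 times the lowest for SEMA3C and 1.26 times for SEMA3D. SEMA3A, the classical collapsing signal for growth cones, had 30.3, 32.4 and 16.5 CPM, a mean of 26.4 ± 8.67. SEMA3A was thus similar in replicates 1 and 2 and lower in replicate 3. SEMA3F, which acts mainly through NRP2, averaged 26.4 ± 6.83 CPM and was highest in replicate 3. SEMA3E, which can bind PLXND1 without a neuropilin, averaged 15.8 ± 5.42 CPM and was highest in replicate 1. SEMA3B averaged 3.69 ± 0.639 CPM, from 26, 18 and 31 reads.

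The membrane-bound semaphorins that were measured belong to classes 4 and 5. SEMA5A and SEMA5B, whose proteins carry thrombospondin repeats, averaged 13.4 ± 2.27 and 2.77 ± 1.18 CPM (SD, n = 3). SEMA4G averaged 5.58 ± 1.34 CPM. SEMA4F had 11.4, 2.82 and 5.49 CPM in replicates 1 to 3, a mean of 6.57 ± 4.39, and stood at 4.2 CPM without replicate 1. Its SD, 66.8% of the mean, was the largest among the 35 measured guidance genes. The class 6 and 7 genes were all under 1 CPM in some library. SEMA6D had 6, 17 and 10 reads, SEMA6A 2, 4 and 8, SEMA6C 0, 4 and 1, and SEMA6B 0, 0 and 1. SEMA7A, which encodes the lipid-anchored ligand of PLXNC1, had 4, 5 and 6 reads. The class 4 genes SEMA4C (2, 7 and 16 reads), SEMA4D (4, 10 and 0), SEMA4A (3, 0 and 1) and SEMA4B (1, 0 and 1) were likewise low, and SEMA4D encodes the main ligand of PLXNB1.

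Both neuropilin genes and 5 of 7 plexin genes in the table were measured. NRP1, a co-receptor of class 3 semaphorins and of vascular endothelial growth factor, had 278, 218 and 241 CPM in replicates 1 to 3, a mean of 246 ± 30.6 (SD, n = 3). NRP2 had 34.1, 55.0 and 77.4 CPM, a mean of 55.5 ± 21.7. In these 3 libraries NRP1 was highest in replicate 1 and NRP2 was lowest there, and the highest NRP2 value was 2.27 times the lowest. PLXNC1, the receptor of SEMA7A, had 53.2, 52.0 and 44.5 CPM, a mean of 49.9 ± 4.74. PLXND1, the receptor of SEMA3E, had 25.5, 34.7 and 41.8 CPM, a mean of 34.0 ± 8.15. PLXNA3, a partner of neuropilins, averaged 19.2 ± 6.25 CPM, PLXNB1 averaged 5.05 ± 2.90 and PLXNA2 averaged 2.84 ± 1.34. PLXND1, PLXNA3, PLXNB1 and PLXNA2 were each lowest in replicate 1 and highest in replicate 3, as NRP2 was. PLXNB3, a receptor of SEMA5A, had 0, 4 and 0 reads, and PLXNA4 had 1, 0 and 0.

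Of the Slit and Robo genes, SLIT3, ROBO1 and ROBO2 were measured. SLIT3, a secreted Slit that is also made outside the nervous system, had 38.6, 52.0 and 76.0 CPM in replicates 1 to 3, a mean of 55.5 ± 18.9 (SD, n = 3). SLIT1 and SLIT2 had 0 reads in every library. The 3 Slit genes thus differed in detection, and SLIT3 was lowest in replicate 1, with 1.97 times that level in replicate 3. ROBO1 had 143, 131 and 146 CPM, a mean of 140.2 ± 7.96. ROBO2 had 30.1, 25.4 and 27.6 CPM, a mean of 27.7 ± 2.33. Both receptors varied little, with SDs of 5.68% and 8.43% of the mean. ROBO3, a divergent receptor of crossing axons, had 0, 1 and 0 reads, and ROBO4, known from endothelium, had 0 in every library.

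Among the netrins, NTN4 and NTN1 were measured. NTN4, a netrin that binds laminins and can disturb their network, had 146, 85.6 and 77.4 CPM in replicates 1 to 3, a mean of 103 ± 37.4 (SD, n = 3). NTN1, the founding netrin, had 12.5, 16.5 and 33.9 CPM, a mean of 21.0 ± 11.4. The libraries stood differently for the 2 netrins, with NTN4 highest in replicate 1 and NTN1 highest in replicate 3, without which NTN1 stood at 14.5 CPM. NTN3 and NTN5 had 0 reads in every library. Of the receptors, NEO1, which also binds repulsive guidance molecules, had 128, 115 and 142 CPM, a mean of 128 ± 13.4. UNC5C, a receptor that mediates repulsion, had 12.1, 11.7 and 11.1 CPM, a mean of 11.6 ± 0.502. Its SD of 4.31% of the mean was the smallest among the measured guidance genes. Counting error alone would give 11.2% for UNC5C, so this small SD cannot be taken as a trait of the gene. The highest library was 1.23 times the lowest for NEO1 and 1.09 times for UNC5C. UNC5B had 1.78, 5.24 and 5.21 CPM, from 15, 26 and 37 reads, and its mean of 4.08 ± 1.99 covers a low replicate 1. DCC, which mediates attraction to NTN1, had 0 reads in every library, as did UNC5A and UNC5D.

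The 17 guidance genes with reads but under 1 CPM in some library had 1 to 84 reads over the 3 libraries together. In 9 of them the highest library reached 1 CPM, and 10 of them had 0 reads in at least 1 library. For the 14 genes at 0 reads the table gives no evidence that reads could be assigned to them. The nearest genes with a row on either side in the RefSeq order were measured on both sides for NTN3 (CCNF and TBC1D24) and SLIT1 (LOC100851323 and ARHGAP19), and on 1 side for EFNA3, EPHA8, EPHA10, EPHB1 and UNC5A. Neither neighbour was measured for DCC, EPHA7, EPHB6, NTN5, ROBO4, SLIT2 and UNC5D. The reads of a neighbour do not show whether reads could be assigned to the gene itself. EPHA6, PLXNA1, PLXNB2 and SEMA3G, which the same symbol rule finds in RefSeq, have no row under these symbols and were not analysed here.

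Genes that act downstream of these receptors, or beside them, were counted in 4 lists, to be read against the 56.4% of protein-coding genes that were measured. Of the Eph and ephrin signalling list 12 of 16 were measured (75%), led in reads by the tyrosine phosphatase PTPN13 (301 ± 51.7 CPM; SD, n = 3), the Ras GTPase-activating protein RASA1 (191 ± 43.0) and the kinase ABL1 (131 ± 14.3). ADAM10, a protease that cleaves ephrins, averaged 96.9 ± 17.8 CPM. Of the semaphorin signalling list 16 of 25 genes with a row were measured (64%), among them RND3, a small GTP-binding protein (420 ± 188 CPM), DPYSL2, a collapsin response mediator (316 ± 48.8), and ARHGEF12, an exchange factor bound by B-type plexins (203 ± 30.7). The other ligands and receptors that share neuropilins were split, with VEGFA at 26.8 ± 4.81, VEGFC at 60.3 ± 11.3 and FLT1 at 72.3 ± 16.1 CPM, and with KDR and FLT4 at 0 reads.

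Of the Slit and Robo signalling list 14 of 15 genes with a row were measured (93.3%), among them CDC42 (521 ± 33.4 CPM; SD, n = 3), ENAH (182 ± 36.2) and RAC1 (148 ± 47.3), which act on the actin cytoskeleton. The Slit-Robo GTPase-activating proteins SRGAP1 and SRGAP2 averaged 45.7 ± 5.68 and 19.8 ± 0.845 CPM, while SRGAP3 had 0 reads. Of the netrin list, which also holds other ligands of netrin receptors, 13 of 19 were measured (68.4%). MAGED1, an intracellular partner of UNC5 receptors, averaged 856 ± 194 CPM. FLRT2, a membrane protein that binds UNC5 receptors, averaged 569 ± 93.8 CPM, and FLRT3 averaged 99.3 ± 3.82. RGMB, a repulsive guidance molecule and ligand of NEO1, averaged 446 ± 13.8 CPM, whereas RGMA had 4, 4 and 10 reads. DSCAM and DRAXIN had 0 reads in every library.

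The spread between replicates was compared with that of other genes at the same level. The edgeR trended dispersion was fitted on the 10434 genes that had at least 10 counts in each library, 34 of them guidance genes, and a gene was called more variable than the trend by a negative binomial Pearson statistic at an adjusted p under 0.05 (Benjamini-Hochberg). The number called was 0 of 34 guidance genes and 0 of all 10434 (0%). Orders of libraries given for single genes therefore describe these 3 libraries only. At an unadjusted p under 0.05 it was 1 of 34, NTN1 (adjusted p = 0.832 with the edgeR dispersion), against 5.06% of all genes. The trend was fitted to these same genes and libraries, so the share over all genes is partly set by the fit. The same statistic with the DESeq2 dispersion trend also called 0 guidance genes and 0 of all 10434. There, 1 guidance gene was at an unadjusted p under 0.05, but the share of all genes at that p was not recorded, so this count has no background. On simulated data for 10434 genes in 3 replicates, the same statistic called 2 of 100 genes that were made 2 times higher in a replicate, 61 of 100 made 4 times higher, and 6 of 10234 left unchanged. Each simulated gene was given the dispersion of the fitted trend, and the filter of 10 counts was not applied. The rates for the real genes can therefore differ.

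**Figure D3:**
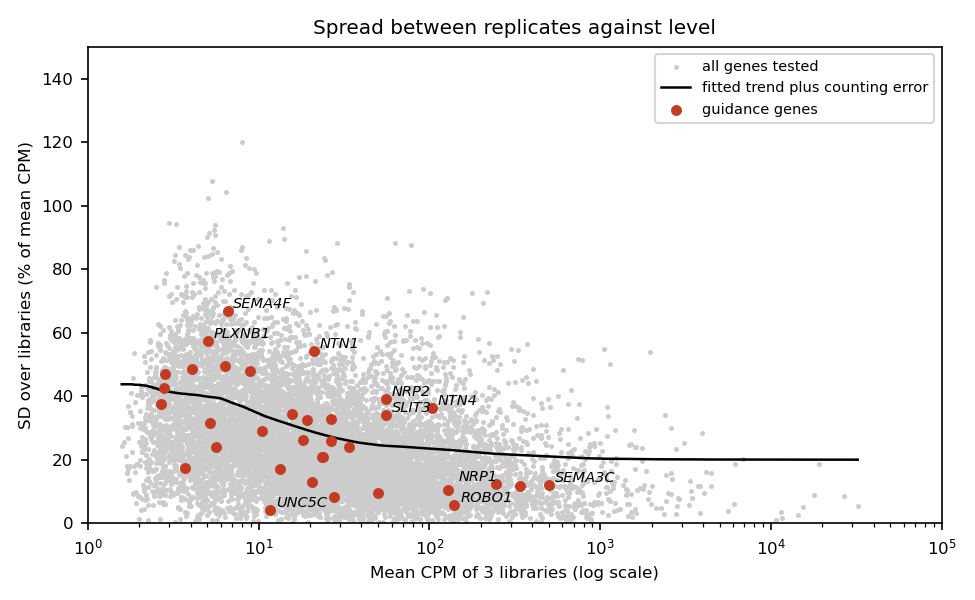
SD over the 3 libraries as a percentage of the mean CPM (vertical axis) against the mean CPM (horizontal axis, log scale) for all 10434 genes tested (grey) and for the 34 guidance genes among them (red). The black line is the spread given by the fitted dispersion trend and counting error. SEMA4F, PLXNB1, NTN1, NRP2, NTN4 and SLIT3 are among the genes above the line, ROBO1 and UNC5C are among those well below it, and 0 of the red points passed the test.

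Over the 35 measured guidance genes the SD was 4.31 to 66.8% of the mean, with a median of 29.1%. The median was 22.3% for the measured protein-coding genes and 23.1% for all 11047 measured genes of the table. These medians are not matched for level, on which the spread depends, unlike the test above. Counting error alone would give 1.70% for SEMA3C and 24.5% for EFNA1, the ends of the range. The observed SD was below counting error for 2 genes, UNC5C and SEMA3B. In 11 of the 35 genes (31.4%) the highest library was more than 2 times the lowest, against 26.7% of all measured genes. Replicate 3 was the highest library for 16 genes (45.7%, against 36.7% of all measured genes), replicate 1 for 15 (42.9%, against 39.5%) and replicate 2 for 4 (11.4%, against 23.8%).

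Several plexins and neuropilins shared a library pattern. In 5 of the 7 measured genes of this class, NRP2, PLXND1, PLXNA3, PLXNB1 and PLXNA2, the level was lowest in replicate 1 and highest in replicate 3. The same order of libraries was found in 13 of the 35 measured guidance genes (37.1%) and in 25.4% of all 11047 measured genes. The other 8 guidance genes were EPHA4, EPHB4, EFNA5, SEMA3F, SEMA3B, SEMA5B, SLIT3 and NTN1. The pattern was noticed in these data and was not tested. Gene counts were highest in replicate 1, and reads that matched no counted feature were 59.2, 58.9 and 62.0% in replicates 1 to 3. The part of either in the pattern was not tested.

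**Figure D4:**
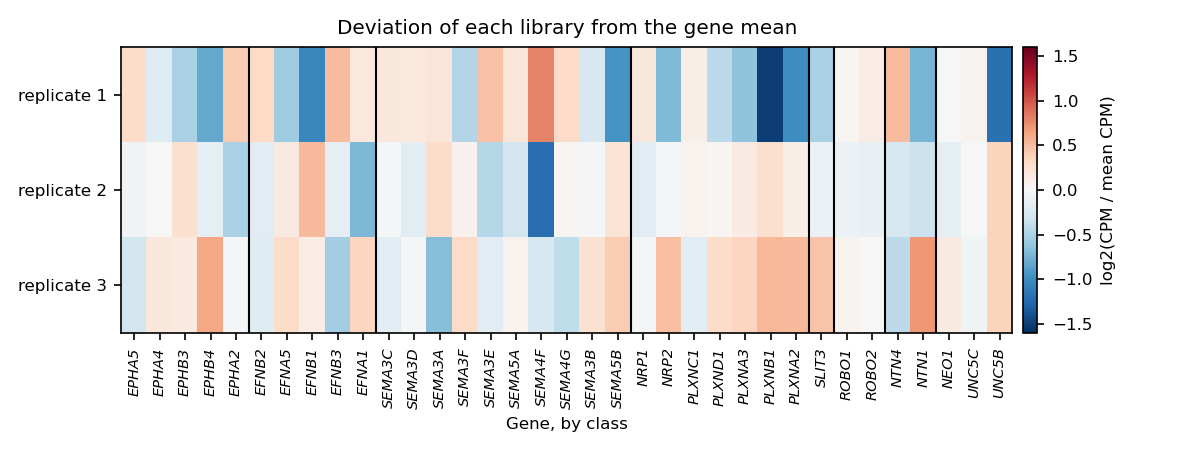
Deviation of each library from the gene's own mean, as log2(CPM / mean CPM) (colour), for the 35 measured guidance genes in columns, with black lines between classes, and the 3 replicates in rows. NRP2, PLXND1, PLXNA3, PLXNB1 and PLXNA2 are blue in replicate 1 and red in replicate 3, while SEMA3C, SEMA3D, ROBO1, ROBO2 and NEO1 are pale throughout.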

How the data were processed

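The submitters' processing notes name HTSeq 0.6.1, TopHat2 2.0.10 and bcl2fastq 2.18.0.12. For the genome build, annotation, counting mode and strand, no setting is stated in these sources. Per the labels' protocols, cDNA was amplified with a single-primer method before sequencing in single reads of 100 bases. The authors deposited raw read counts per gene, 1 column per replicate. Rows that name no gene were left out of library sizes: reads that matched no counted feature (58.9 to 62.0% of each total), with several alignments (7.52 to 7.99%) and over several genes (0.235 to 0.253%). With counting mode and strand unstated, reads of the first kind may lie outside genes or inside them. Because reads with several alignments are not counted, near-identical copies are uncertain, and without strand overlapping genes cannot be told apart.

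CPM used edgeR 4.0.16 in R 4.3.3 with TMM factors of 0.978, 1.02 and 0.998, and DESeq2 1.42.0 served as an alternative. With 1 group there was no contrast between conditions; the spread test used chi-square with 2 degrees of freedom, and the common biological coefficient of variation was 27.3%. Each pair of libraries differed by more than counting noise (chi-square per degree of freedom 10.5 to 36.7). All 66 symbols matched RefSeq (ARS-UCD2.0), used for gene order, for which genes are protein-coding and to look for members without a row. Values in every library are given for the 3 members of each class with the highest mean CPM, and other members are given by mean and SD or by reads. EPHA3, SEMA4F and PLXND1, and ADAM10, the VEGF genes, SRGAP1 to SRGAP3, FLRT3, RGMA, DSCAM and DRAXIN in the pathway lists, fall outside the rule and were named after their values were seen. Some genes of the marker lists are not reported here. Members and lists were chosen with earlier results of these data known. Alternatives were other scalings, thresholds, pseudocounts, dispersions and leaving out each replicate.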

Additional observations from a re-analysis of the deposited data

How the results depend on the processing

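The number of measured guidance genes was 35 with either other scaling, 38 at 0.5 CPM, 29 at 2 CPM, 34 at 10 counts in every library and 35 to 38 without 1 replicate. By class, the number of measured ephrins was 3 at 2 CPM, against 5 at 1 CPM, and the other class counts stayed within 1.5 times under the thresholds tried and without each replicate. The median log2 level was 1.42 and 1.87 at pseudocounts of 0.1 and 1, 1.40 to 1.83 without 1 replicate, and 4.27 over the 34 members that had at least 10 counts in each library, which removes the low members by construction. The number of members more variable than the trend at an adjusted p under 0.05 was 0 under the common dispersion, the DESeq2 trend, both wider filters, RLE scaling and without each replicate. Over all genes these calls were 3 of 10434 under the common dispersion, 15 of 10637 without replicate 1, 1 of 10665 without replicate 3 and 0 under the others. At an unadjusted p under 0.05 stood 1 to 4 members. The share of all genes at that p was not recorded for these alternatives, so these counts cannot be read as few or many. The other scalings moved the levels of measured genes by at most 0.999%, and leaving out a replicate moved 1 level by over 1.5 times, that of SEMA4F without replicate 1. The planned order of members per length was not run because no transcript lengths were used. No paired analysis was possible because the series has 1 group. Members under about 10 reads a library are limited by depth.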
